A study of Mus musculus with 16 samples.

Results

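The genes described here serve the cell in 2 stress programs, one for amino acid shortage and one for unfolded protein in the endoplasmic reticulum (ER). They were taken from a list of 50 gene symbols, and a gene counted as measured where its symbol equalled a row of the array table. Of the 50 genes, 44 had a row among the 18132 genes of the table. The list was kept as an ATF4 arm, with 27 of 29 genes measured, and an ER arm, with 17 of 21 genes measured. SLC7A5, PPP1R15A, DNAJB11, ATF6, SDF2L1 and MANF had no row and were not analysed here, although ARMET, the older symbol of MANF, had one.

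When amino acids run short, or when unfolded protein builds up in the ER, kinases phosphorylate the initiation factor eIF2. General translation then slows while ATF4, a transcription factor, is made, and ATF4 switches on genes for amino acid synthesis, amino acid transport and the charging of tRNA. The ER itself answers unfolded protein through ATF6 and through XBP1, which raise the chaperones, the disulfide isomerases and the machinery that removes misfolded proteins. Fibroblasts fold and secrete large amounts of collagen, so they carry a well developed ER.

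Expression was measured in primary fibroblasts cultured from the inguinal mammary glands of female 129S6 mice of 8 to 10 weeks, either MEKK1+/+ or MEKK1-deficient (MEKK1-/-). MEKK1 is a kinase upstream of JNK and ERK signaling, and its gene is MAP3K1. Cells stayed in growth medium (DMEM with serum, called untreated here) or received CM, which is the same medium conditioned by the human breast cancer line MDA-MB-231, for 8 h. Each of the 4 combinations was hybridized to 4 arrays, 16 in all. The cultures came from fewer mice than cultures in a group, and the mouse behind each culture is not named, so cultures may share a mouse and the p-values measure the spread between cultures.

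Values below are log2 intensities after quantile normalization, so a difference of 1 is a doubling of the signal. A gene is called changed where its limma adjusted p, over all 18132 genes, is under 0.05. A level above background means a value above the 99th percentile of 1075 olfactory receptor genes on the same array. The deposited medians of the arrays ran from 113.77 to 170.093. Of the 14 fibroblast markers, 12 were above background on all 16 arrays. The cultures were not free of other cells, since 10 of 21 macrophage markers were also above background on all arrays. In bulk samples such as these, fewer cells of a type and less RNA per cell cannot be told apart. The MAP3K1 signal ran from 7.42 to 8.18 on the 8 MEKK1+/+ arrays and from 7.79 to 8.41 on the 8 arrays labelled MEKK1-/-, so it was not lower there. Where the probe lies relative to the altered part of the gene is not given in the sources used here, and genotype directions below therefore rest on the labels alone.

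The promoters of both arms were searched for the elements through which each arm is known to be regulated. Promoters of 300 bases, from 250 before to 50 after the start of transcription, were found in RefSeq (build GRCm38.p6) for 41 of the 50 genes. ARMET, ATF6, EIF4EBP1, HYOU1, MANF, MARS, NARS, SLC7A5 and WARS had none here. The composite site bound by ATF4 with a C/EBP partner was searched as TGATGNAA on both strands. It occurred in 8 of the 24 promoters of the ATF4 arm, in 1 of the 17 of the ER arm (Herpud1) and in 3.97% of all 32851 promoters. The stretches with the site in capitals are shown for the regulator Nupr1, which is called with CM, and for Asns and Chac1, classical ATF4 targets that are not. Nupr1 lies at chr7:126625553-126625600 (minus strand), Asns at chr6:7693210-7693252 (minus strand) and Chac1 at chr2:119351029-119351076 (plus strand).
Nupr1: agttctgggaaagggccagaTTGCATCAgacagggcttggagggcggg
Asns: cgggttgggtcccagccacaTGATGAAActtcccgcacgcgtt
Chac1: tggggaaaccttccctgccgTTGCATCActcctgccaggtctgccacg

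The ER stress element, bound by ATF6 together with NF-Y, was searched as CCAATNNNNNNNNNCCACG on both strands. It occurred in 8 of the 17 promoters of the ER arm (Calr, Canx, Creld2, Dnajc3, Hsp90b1, Hspa5, Pdia6 and Syvn1), in 0 of the 24 of the ATF4 arm and in 0.119% of all promoters. These matches are descriptions of sequence, and no binding was measured. The element is shown in capitals for Dnajc3, which is called with CM in both genotypes, and beside it for Hspa5 and Syvn1, which carry the same element and are not called. Dnajc3 lies at chr14:118937807-118937865, Hspa5 at chr2:34772005-34772063 and Syvn1 at chr19:6046512-6046570, all on the plus strand.
Dnajc3: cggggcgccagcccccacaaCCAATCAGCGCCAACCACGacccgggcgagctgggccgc
Hspa5: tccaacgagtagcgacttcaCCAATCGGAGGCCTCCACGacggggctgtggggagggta
Syvn1: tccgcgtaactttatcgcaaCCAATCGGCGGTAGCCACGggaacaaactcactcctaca

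Most of the genes gave a clear signal. Of the 44, 36 were above background on all 16 arrays, SESN2 on 10 arrays and PHGDH on 13. The remaining 6 (PSPH, PYCR1, SLC7A1, ARMET, CANX and EDEM1) were above background on no array. CANX encodes calnexin, an ER lectin found in most cells, so its level at background is not read as absence of the gene. Whether the probe or a low transcript level lies behind it was not tested. By mean level over the arrays, 24 genes of the ATF4 arm and 14 of the ER arm exceeded the mean background.

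The question of the study was which genes tumor-conditioned medium changes in mammary fibroblasts and whether this depends on MEKK1. With CM, 5 of the 44 genes passed the threshold in at least 1 comparison. In MEKK1+/+ cells, NUPR1 rose, while MARS and DNAJC3 fell, so 3 of 44 genes (6.82%) were called beside 5.01% of all genes tested. On arrays labelled MEKK1-/-, ATF5, MARS and DNAJC3 fell, again 3 of 44 (6.82%) beside 4.69% of all genes. Averaged over both genotypes, 5 of 44 genes (11.4%) were called beside 12.5% of all genes, namely NUPR1 and SEL1L higher and ATF5, MARS and DNAJC3 lower. These shares lie near those of all genes, many of which were at background. Of the 8186 genes above background on average, 380 were called higher and 472 lower in MEKK1+/+ cells. The counts were 371 and 439 on arrays labelled MEKK1-/-, and 979 and 1090 averaged over genotypes. In each comparison this is a larger share than among the 44 genes. Treated and untreated arrays did not overlap for 4 of 44 genes in MEKK1+/+ cells (NUPR1, SEL1L, MARS and DNAJC3), beside 9.70% of all genes, and for 4 of 44 on arrays labelled MEKK1-/- (ATF5, MARS, DNAJC3 and SLC7A1, the last at background), beside 10.4%.

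**Figure D1:**
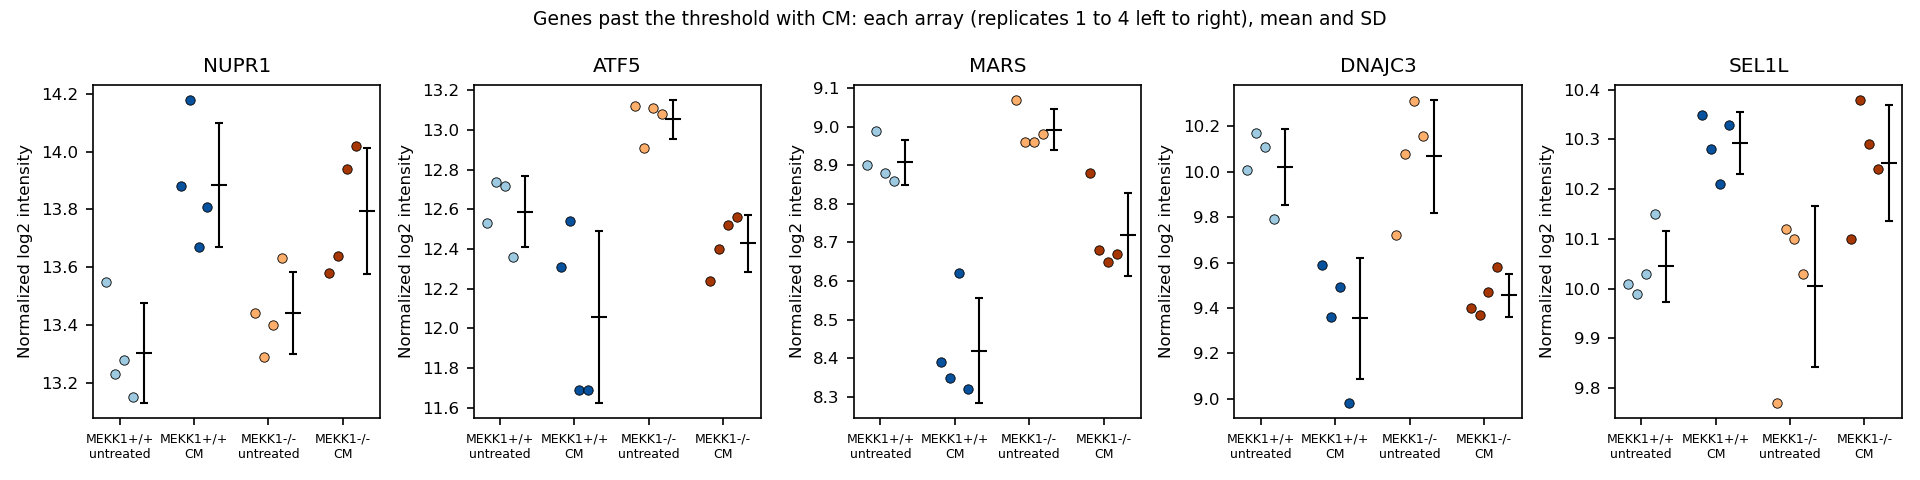
Normalized log2 intensity of the 5 genes called with CM, by group on the x axis (points: arrays, replicates 1 to 4 from left to right; bar: mean and SD of 4 arrays). DNAJC3 and MARS are lower with CM in both genotypes with no overlap of the arrays, while NUPR1 and SEL1L are higher, with overlap on arrays labelled MEKK1-/-.

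Among the regulators of the ATF4 arm, NUPR1 encodes a small stress-induced chromatin protein. It read 13.55, 13.23, 13.28 and 13.15 on the untreated MEKK1+/+ arrays and 13.88, 14.18, 13.67 and 13.81 with CM, without overlap. The rise was 0.58 ± 0.12 (SE), or 1.5-fold (limma adjusted p = 0.0135). On arrays labelled MEKK1-/- it read 13.44, 13.29, 13.40 and 13.63 untreated and 13.58, 13.64, 13.94 and 14.02 with CM, where 1 treated array lay below the highest untreated one. The difference there was 0.35 ± 0.12 (limma adjusted p = 0.14). That the rise differs between genotypes was not shown, since the interaction was -0.23 ± 0.18 (limma adjusted p = 1.00). The MEKK1+/+ call was lost with the values as deposited (0.24, adjusted p = 0.368), with arrays scaled to the same median (0.53, adjusted p = 0.0639) and without both MEKK1+/+ arrays numbered 4 (0.56, adjusted p = 0.0598).

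ATF5, a transcription factor related to ATF4 and translated in the same way under stress, moved the other way. It read 13.12, 12.91, 13.11 and 13.08 on untreated arrays labelled MEKK1-/- and 12.24, 12.40, 12.52 and 12.56 with CM, so all treated arrays were below all untreated ones. The fall was -0.62 ± 0.16 (limma adjusted p = 0.0397; 2-sided exact permutation p = 0.0286, the smallest that 4 arrays against 4 can give). In MEKK1+/+ cells it read 12.53, 12.74, 12.72 and 12.36 untreated and 12.31, 12.54, 11.69 and 11.69 with CM, where 1 treated array lay within the untreated range. The difference there was -0.53 ± 0.16 (limma adjusted p = 0.0793), and averaged over genotypes it was -0.57 ± 0.11 (limma adjusted p = 0.00333). In MEKK1+/+ cells ATF5 was called in 6 of 29 alternative analyses.

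The other 6 regulators were not called. ATF4 itself differed by -0.05 in MEKK1+/+ cells and by 0.09 on arrays labelled MEKK1-/-, although ATF4 is controlled mainly at translation, which these arrays do not measure. DDIT3, which encodes the proapoptotic factor CHOP, differed by 0.25 and 0.51 (limma adjusted p = 0.723 and 0.327). TRIB3, a pseudokinase induced by ATF4 and CHOP, differed by -0.46 and -0.07, and CHAC1, which degrades glutathione, by -0.21 and 0.00. The standard errors of TRIB3 (0.39) and CHAC1 (0.50) were the widest of the list. EIF4EBP1, a translation repressor, differed by -0.21 and -0.07.

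The enzymes of serine, glycine, asparagine and proline synthesis gave 0 calls among 8 in either genotype without the replicate block. This block treats arrays of equal replicate number as pairs within each genotype. With it MTHFD2 was called in MEKK1+/+ cells (-0.46, limma adjusted p = 0.00683) and on arrays labelled MEKK1-/- (-0.35, limma adjusted p = 0.024). SHMT2 was called with it on arrays labelled MEKK1-/- (-0.44, limma adjusted p = 0.0376). In MEKK1+/+ cells 5 of 8 were lower, with a median of -0.27, and on arrays labelled MEKK1-/- 7 of 8 were lower, with a median of -0.14, beside 50.7% and 51.8% of all genes lower. SHMT2, the mitochondrial enzyme that converts serine to glycine, had the largest mean change of the group. It read 8.80, 9.05, 9.0 and 8.61 on untreated MEKK1+/+ arrays and 8.27, 9.16, 8.36 and 8.11 with CM. The arrays labelled MEKK1-/- read 9.66, 8.98, 9.28 and 9.21 untreated and 9.39, 8.52, 8.67 and 8.78 with CM. The groups overlapped in both genotypes, since 1 treated array in each stood high. The difference averaged over genotypes was -0.42 ± 0.16 (limma adjusted p = 0.108). MTHFD2, which acts beside SHMT2 in the mitochondrial folate pathway, differed by -0.41 ± 0.16 (limma adjusted p = 0.133), PSAT1 by -0.33 and ASNS, asparagine synthetase, by -0.20. With the replicate block, SHMT2 and MTHFD2 passed the threshold averaged over genotypes (limma adjusted p = 0.00454 and 0.00082). The labels state the pairs of that block in neither genotype, and the MEKK1+/+ numbers were not taken as pairs. Averaged over genotypes, SHMT2 was called in 4 and MTHFD2 in 3 of 28 alternative analyses, the block among them.

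Of the 4 transport and receptor genes, none was called with CM in the main fit. SLC3A2 encodes the heavy chain shared by several amino acid exchangers. It read 7.88, 8.08, 7.93 and 7.80 on untreated MEKK1+/+ arrays and 8.13, 8.42, 8.33 and 7.78 with CM. The arrays labelled MEKK1-/- read 8.52, 8.23, 8.04 and 8.06 untreated and 8.77, 8.18, 8.58 and 8.65 with CM. In each genotype 3 treated arrays lay above all the untreated ones and 1 did not. The difference averaged over genotypes was 0.29 ± 0.11 (limma adjusted p = 0.0984, and 0.026 with the replicate block, which pairs the arrays of both genotypes by number). Averaged over genotypes, SLC3A2 was called in 5 of 28 alternative analyses, the block among them.

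Among the 7 tRNA synthetases, 6 were lower with CM in each genotype and 1 was called, MARS, which charges tRNA with methionine. MARS read 8.90, 8.99, 8.88 and 8.86 on untreated MEKK1+/+ arrays and 8.39, 8.35, 8.62 and 8.32 with CM. The fall was -0.49 ± 0.07, or 1.40-fold (limma adjusted p = 0.00124). On arrays labelled MEKK1-/- it read 9.07, 8.96, 8.96 and 8.98 untreated and 8.88, 8.68, 8.65 and 8.67 with CM. The fall there was -0.27 ± 0.07 (limma adjusted p = 0.0392). In both genotypes every treated array was below every untreated one, and the interaction was 0.22 ± 0.10 (limma adjusted p = 1.00). The 6 others ranged from -0.36 (EPRS) to 0.06 (WARS) in MEKK1+/+ cells and from -0.30 (NARS) to 0.18 (WARS) on arrays labelled MEKK1-/-.

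In the ER arm 1 gene was called in each genotype. DNAJC3, also called P58IPK, is an ER cochaperone of BiP that restrains the eIF2 kinase PERK. It read 10.01, 10.17, 10.11 and 9.79 on untreated MEKK1+/+ arrays and 9.59, 9.36, 9.49 and 8.98 with CM, a fall of -0.66 ± 0.14, or 1.59-fold (limma adjusted p = 0.0100). On arrays labelled MEKK1-/- it read 9.72, 10.08, 10.31 and 10.16 untreated and 9.40, 9.37, 9.47 and 9.58 with CM, a fall of -0.61 ± 0.14, or 1.53-fold (limma adjusted p = 0.017). The arrays of treated and untreated cells did not overlap in either genotype. No other chaperone was called. HSPA5, which encodes BiP, differed by 0.16 ± 0.20 and 0.28 ± 0.20, and HSP90B1, which encodes GRP94, by 0.08 ± 0.28 and 0.07 ± 0.28.

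In the XBP1 branch, XBP1 mRNA differed by -0.06 and 0.06. XBP1 read 12.15, 12.40, 12.44 and 12.23 on untreated MEKK1+/+ arrays and 12.51, 11.58, 12.56 and 12.35 with CM. In the MEKK1-/- groups XBP1 read 12.19, 12.33, 12.34 and 12.18 untreated and 12.25, 12.48, 12.24 and 12.31 with CM. Only the treated MEKK1+/+ replicate 2 stood apart, below all the others. XBP1 is activated by splicing, which one value per gene cannot show.

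The removal of misfolded proteins from the ER runs through a membrane complex of the ubiquitin ligase SYVN1 and its partner SEL1L. SEL1L read 10.01, 9.99, 10.03 and 10.15 on untreated MEKK1+/+ arrays and 10.35, 10.28, 10.21 and 10.33 with CM, and 9.77, 10.12, 10.10 and 10.03 against 10.10, 10.38, 10.29 and 10.24 on arrays labelled MEKK1-/-. The rise averaged over genotypes was 0.25 ± 0.06, or 1.19-fold (limma adjusted p = 0.00751), with differences of 0.25 in MEKK1+/+ cells and 0.25 on arrays labelled MEKK1-/- that missed the threshold alone (limma adjusted p = 0.0915 and 0.104). The treated and untreated arrays overlapped only in the second. The call was lost with the values as deposited (0.01) and with arrays scaled to the same median (0.15). SYVN1 read 12.46, 13.00, 12.92 and 12.98 untreated and 13.46, 12.93, 13.02 and 13.00 with CM in MEKK1+/+ cells. In the MEKK1-/- groups SYVN1 read 12.93, 12.82, 13.05 and 12.63 untreated and 12.85, 13.40, 13.12 and 13.26 with CM. Its difference averaged over genotypes was 0.28 ± 0.11 (limma adjusted p = 0.104), and the groups overlapped in both genotypes.

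Of the disulfide isomerases and lectins, none of 5 was called. CALR, calreticulin, a calcium-binding lectin chaperone, had the largest mean change, -0.25 ± 0.14 (limma adjusted p = 0.336). It read 9.56, 8.78, 8.96 and 8.59 on untreated MEKK1+/+ arrays and 8.86, 8.26, 8.74 and 8.63 with CM, and 8.43, 8.78, 8.39 and 8.55 against 7.90, 8.55, 8.59 and 8.54 on arrays labelled MEKK1-/-. The arrays of both media overlapped in each genotype. PDIA3, PDIA4 and PDIA6, which form and rearrange disulfide bonds, differed by 0.01, 0.15 and 0.11 averaged over genotypes.

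**Figure D2:**
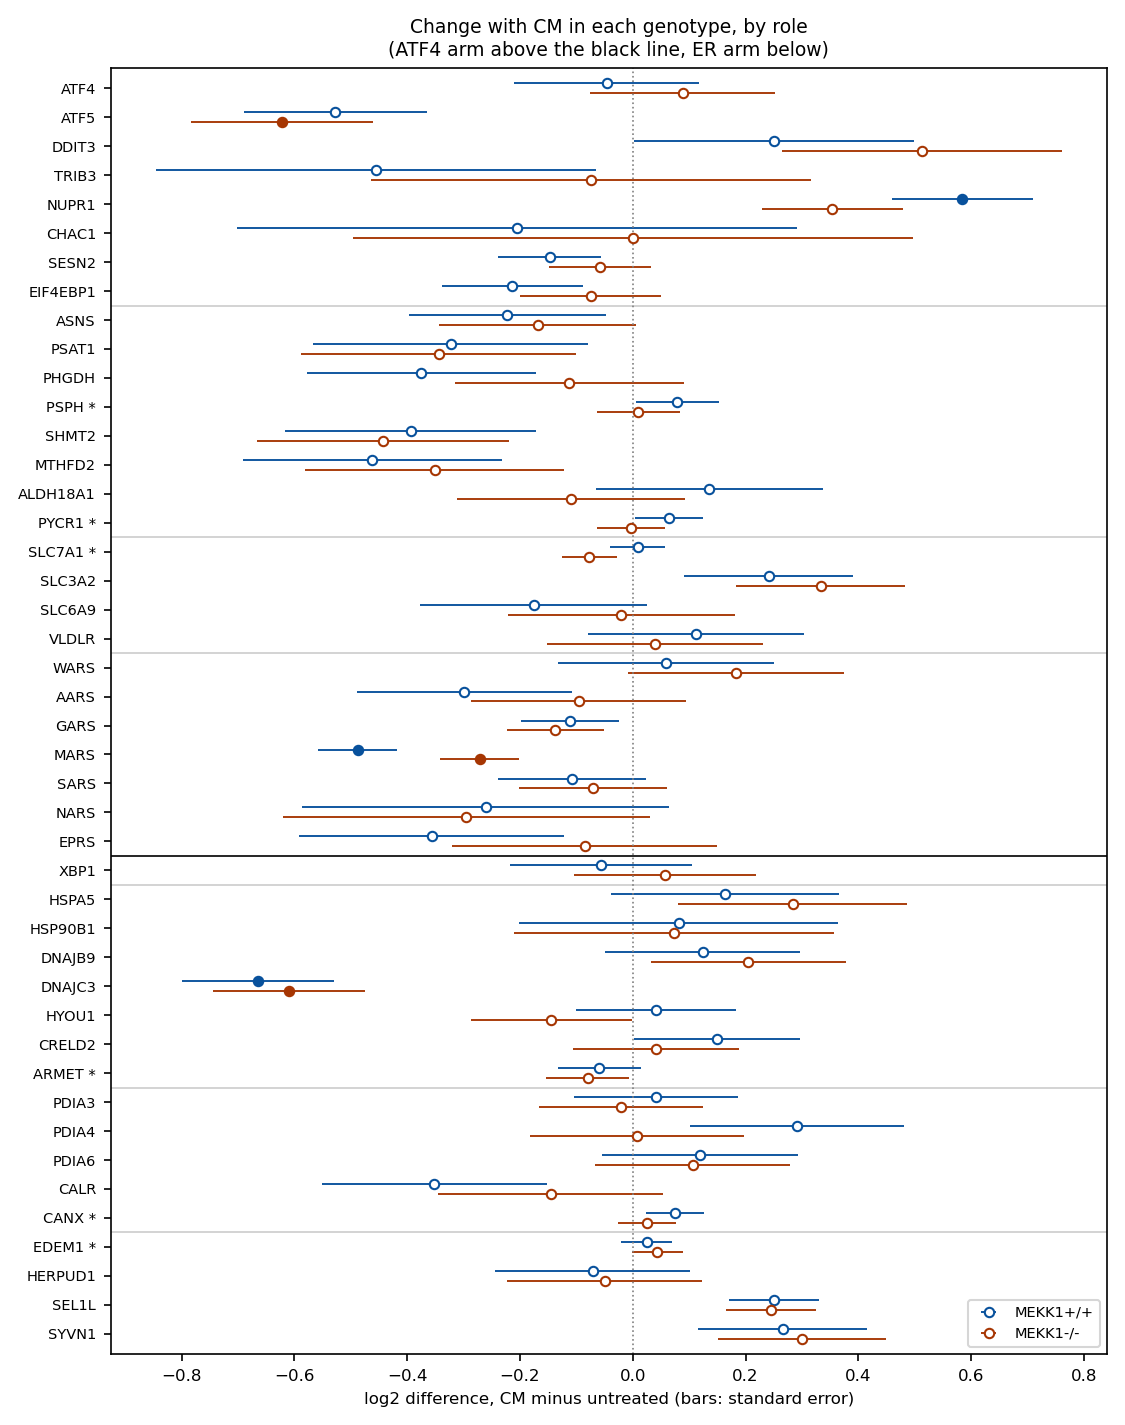
Log2 difference between CM and untreated cells for the 44 genes in MEKK1+/+ (blue) and MEKK1-/- (brown), with standard errors as bars; filled points have a limma adjusted p under 0.05, and genes with a star were not above background on average. Filled points are NUPR1, MARS and DNAJC3 in MEKK1+/+ and ATF5, MARS and DNAJC3 in MEKK1-/-, and the other points sit on both sides of 0.

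Over all measured genes, the ATF4 arm had a median of -0.18 with CM in MEKK1+/+ cells (9 of 27 higher, 18 lower) and of -0.07 on arrays labelled MEKK1-/- (8 higher, 19 lower). The ER arm had medians of 0.08 (12 of 17 higher) and 0.04 (11 of 17 higher). For comparison, 49.3% and 48.2% of all genes were higher. With the values as deposited the medians in MEKK1+/+ cells were -0.56 and -0.29, where the median of all genes was -0.28. The interaction of genotype with CM gave 0 calls among the 44 genes by limma and 1 of 44 without adjustment (MARS, above), where 2.61% of all genes had an unadjusted p under 0.05.

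The 3 calls on arrays labelled MEKK1-/- depended on single arrays. Without untreated replicate 3, untreated replicate 4 or treated replicate 2 of that genotype the count was 0. It was 1 without untreated replicate 1, treated replicate 3 or treated replicate 4 of that genotype, or without the untreated MEKK1+/+ replicate 3, which enters through the shared spread. The labels name no pairs of arrays. With the replicate block, which treats equal replicate numbers as pairs, 6 of 44 genes were called on arrays labelled MEKK1-/- beside 7.93% of all genes. The 6 genes were ATF5 (-0.62), SHMT2 (-0.44), MTHFD2 (-0.35), MARS (-0.27) and DNAJC3 (-0.61), all lower, and SEL1L (0.25), higher. DNAJC3 and MARS were called in MEKK1+/+ cells under all 29 alternatives.

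Neighbouring genes of these pathways were counted over whole lists. Averaged over genotypes, 5 of 19 further ATF4 targets were called, 3 higher (GADD45A, DDIT4 and CEBPB) and 2 lower (SLC1A4 and SLC38A2). GADD45A, a growth arrest gene, had a rise of 0.98 and SLC1A4, a transporter of small neutral amino acids, a fall of -0.77. Among 21 further genes of ER folding and degradation, 4 were higher and 0 lower. Of 13 sensors and eIF2 factors, 2 were lower (EIF2B1, -0.40, and CREBL1, -0.35), and of 13 other cytosolic tRNA synthetases, 1 was lower (YARS, -0.22). Among 16 heat shock genes of the cytosol and mitochondria, 4 were lower and 0 higher, including HSPA8, the constitutive HSC70, at -0.92 and HSP105 at -0.77. One of 25 translocation and secretion genes was lower (SSR3, -0.25). For all genes the share called was 6.03% higher and 6.44% lower.

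The second question was whether the genotypes differ. No gene of the 44 was called between genotypes in untreated cells, with CM or averaged over both media, where limma called 0, 1 and 2 of all genes (0.00%, 0.00552% and 0.0110%). Without adjustment, 4, 9 and 18 of the 44 genes had a p under 0.05, beside 9.27%, 8.09% and 15.5% of all genes. A z-test of the kind named in the study's methods called 6, 1 and 4 of the 44, beside 4.51%, 2.54% and 5.15% of all genes. CANX, which was at background, was among these genes in untreated cells and averaged over media, and SLC7A1, also at background, in untreated cells. This z-test takes the spread of 4 arrays per group as known, so its p-values are too small. In untreated cells it called 817 of all genes, where limma called 0. In the comparison averaged over media, the arms leaned to opposite sides. The ATF4 arm was higher on arrays labelled MEKK1-/- for 23 of 27 genes, with a median of 0.24, and the ER arm lower for 12 of 17 genes, with a median of -0.06. Of all genes 52.9% were higher and 47.1% lower. In the ATF4 arm, 13 of 27 genes (48.1%) were higher at an unadjusted p under 0.05, beside 8.37% of all genes. In untreated cells it was 2 of 27 beside 4.92%, and with CM 7 of 27 beside 4.43%. The averaged comparison counts untreated and CM arrays as independent. Deviations of same-numbered untreated and CM arrays of a genotype correlated from -0.038 to 0.576. The p-values between genotypes averaged over media may therefore be too small. The genes of an arm share the same arrays, so these counts describe the arrays and carry no test of the arm.

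**Figure D3:**
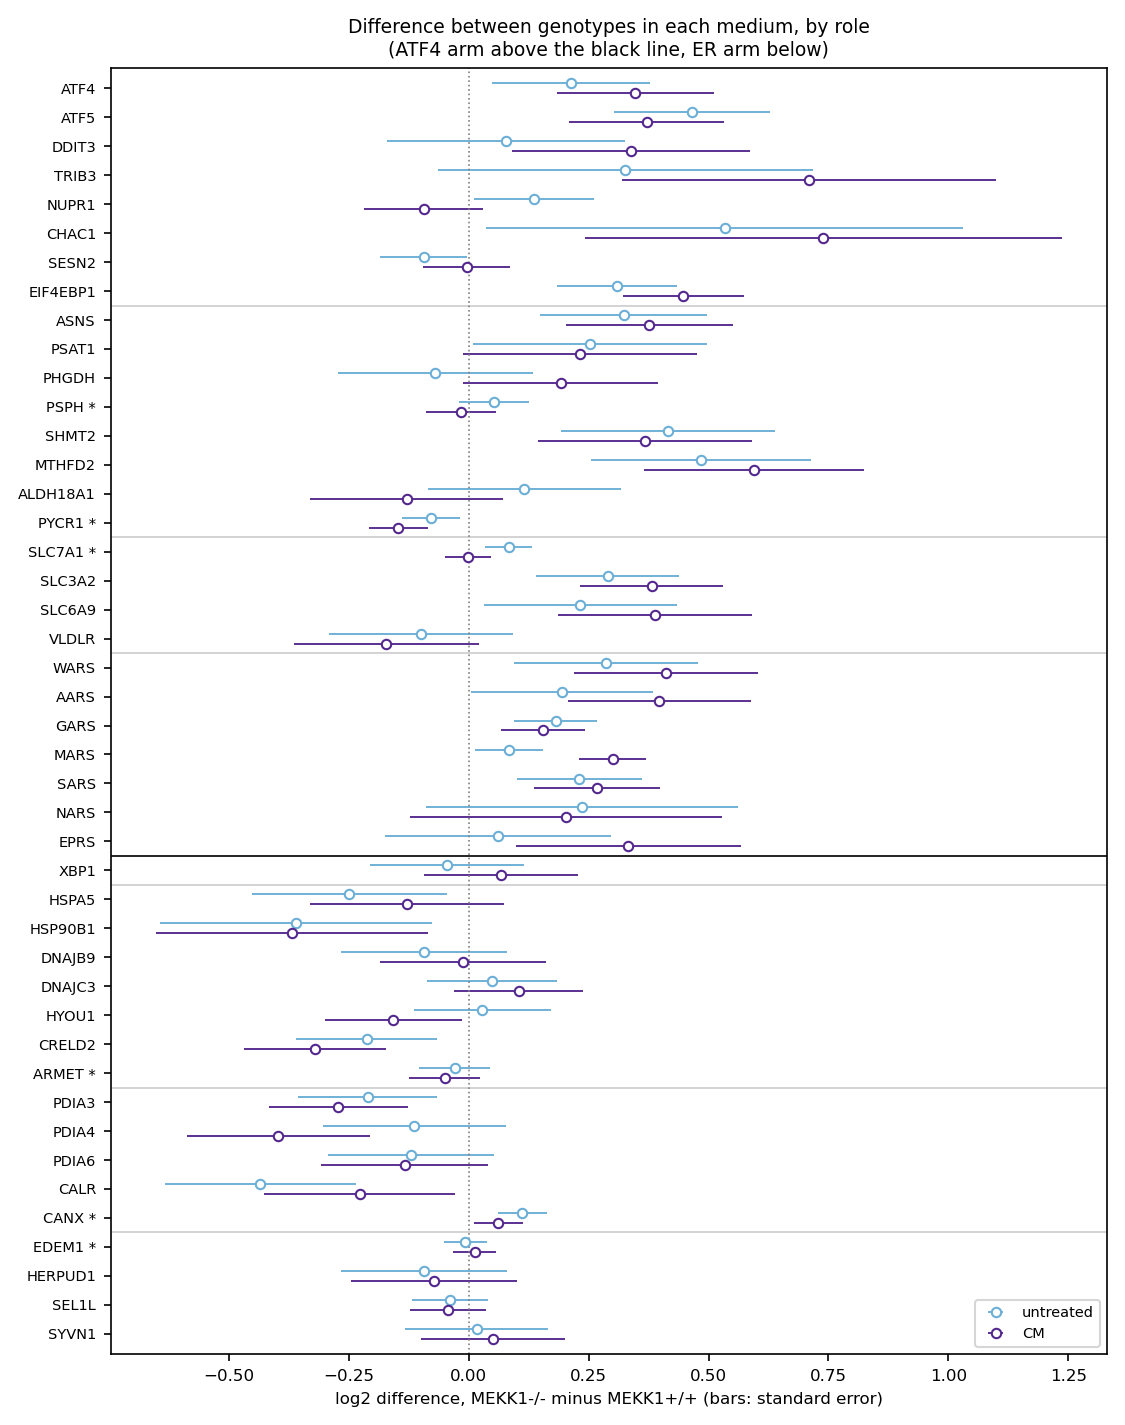
Log2 difference between MEKK1-/- and MEKK1+/+ for the 44 genes in untreated cells (light blue) and with CM (purple), with standard errors as bars; genes with a star were not above background on average. No point is filled, as no gene had a limma adjusted p under 0.05, and 23 of 27 genes of the ATF4 arm are above 0 in untreated cells against 4 of 17 of the ER arm, where 52.8% of all genes were higher.

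The largest differences of the ATF4 arm averaged over media were those of CHAC1 (0.64 ± 0.35), MTHFD2 (0.54 ± 0.16), TRIB3 (0.52 ± 0.28), ATF5 (0.42 ± 0.11), SHMT2 (0.39 ± 0.16) and EIF4EBP1 (0.38 ± 0.09). EIF4EBP1 had the smallest limma adjusted p of the 44, 0.105. It read 13.37, 13.69, 13.46 and 13.13 on untreated MEKK1+/+ arrays and 13.90, 13.73, 13.66 and 13.60 on untreated arrays labelled MEKK1-/-. With CM it read 13.37, 13.33, 13.27 and 12.83 against 13.71, 13.75, 13.51 and 13.62, where every array labelled MEKK1-/- was above every MEKK1+/+ array. With CM the genotypes did not overlap for 3 of the 44 genes (EIF4EBP1, MARS and PYCR1, the last lower and at background), beside 4.17% of all genes, and in untreated cells for 2 (ATF4 and ATF5), beside 4.61%. All 7 tRNA synthetases were higher on arrays labelled MEKK1-/-, from 0.17 (GARS) to 0.35 (WARS). Leaving out one array gave 1 call, EIF4EBP1 (0.43, limma adjusted p = 0.0422) without the untreated MEKK1+/+ replicate 2 and ATF5 (0.49, limma adjusted p = 0.0383) without the treated MEKK1+/+ replicate 2. In the ER arm the largest differences were those of HSP90B1 (-0.36 ± 0.20), CALR (-0.33 ± 0.14), CRELD2 (-0.27 ± 0.10), PDIA4 (-0.25 ± 0.13) and PDIA3 (-0.24 ± 0.10), with limma adjusted p from 0.238 to 0.398.

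**Figure D4:**
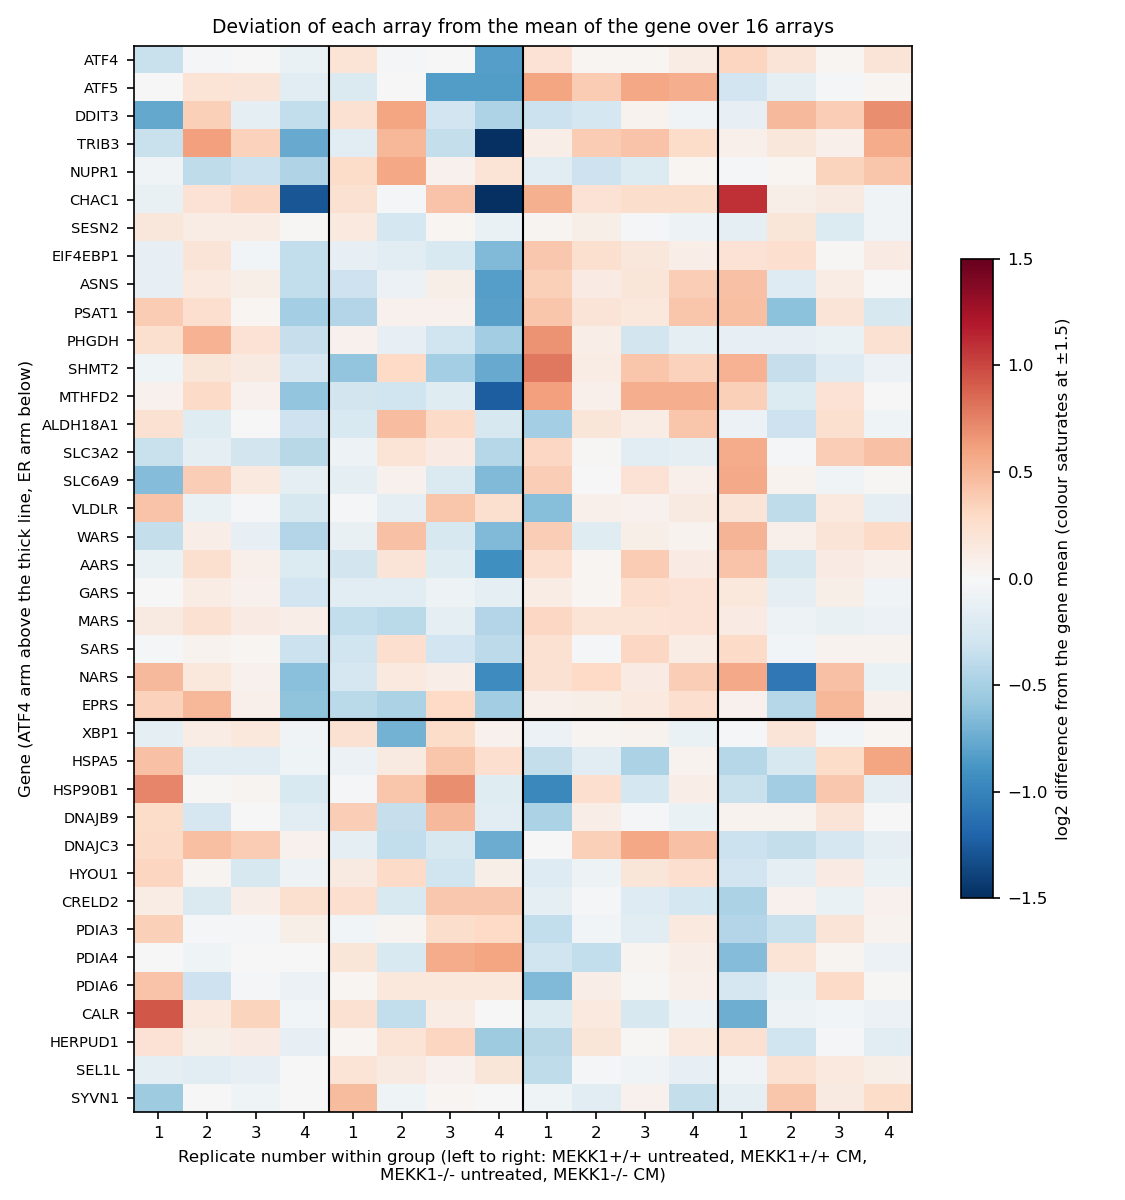
Deviation of each array (columns, by group and replicate) from the mean of the gene over 16 arrays, in log2, for the 38 genes above background on average. The last column of both MEKK1+/+ groups is blue over most of the ATF4 arm, where replicate 4 was the lowest of its group for 21 and 19 of 24 genes, and the first column of both MEKK1-/- groups is blue over much of the ER arm.

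The arm levels differed between arrays of the same group. Averaged over its 24 genes above background, the ATF4 arm deviated from the gene means by -0.04, 0.17, 0.05 and -0.38 on the untreated MEKK1+/+ arrays and by -0.14, 0.07, -0.08 and -0.68 with CM. The arrays labelled MEKK1-/- gave 0.22, 0.09, 0.17 and 0.19 untreated and 0.26, -0.12, 0.12 and 0.10 with CM. Both MEKK1+/+ arrays numbered 4 were thus the lowest of their groups. They held the lowest value of the group for 21 of 24 genes untreated and 19 of 24 with CM, beside 33.2% and 26.5% of the 8186 genes above background. They were also the dimmest arrays of their groups, with deposited medians of 114.253 and 113.77. Without both of them, the ATF4 arm was higher on arrays labelled MEKK1-/- for 20 of 27 genes, with a median of 0.14 averaged over media, and 8 genes were higher at an unadjusted p under 0.05, beside 6.11% of all genes. The part of these arrays' brightness in the result was not tested.

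The ER arm deviated most on both arrays labelled MEKK1-/- and numbered 1, at -0.33 untreated and -0.28 with CM, where 8 and 9 of 14 genes were the lowest of the group, beside 36.5% and 31.3% of the genes above background. The same arrays had the highest epithelial marker level, a mean of 8.69 and 8.68 over 13 markers, with 8 of 13 above background, against 6.94 to 7.37 on the other 14 arrays. Their endothelial marker level was also the highest, 7.89 and 7.85 over 8 markers against 7.01 to 7.44, although KDR and TIE1 were above background on no array. Between genotypes, averaged over media, 7 of the 8 endothelial markers were higher on arrays labelled MEKK1-/-, with a median of 0.26, 5 of them at an unadjusted p under 0.05 and 0 called. KRT5, WAP, CSN2, ELF3 and ELF5 were above background on no array. Without both arrays labelled MEKK1-/- and numbered 1, the ER arm median between genotypes was 0.01 (9 of 17 higher). The ATF4 arm median was then 0.21 (23 of 27 higher). The ATF4 arm genes higher at an unadjusted p under 0.05 went from 13 to 7, beside 6.37% of all genes. The macrophage markers were lower on arrays labelled MEKK1-/-, by a median of -0.83 over 21 markers averaged over media, with mean levels of 8.75 to 9.73 on MEKK1+/+ arrays and 8.08 to 9.33 on the others. CD163, MSR1, ITGAM, FCER1G and PTPRC were above background on no array. The part of macrophage, epithelial and endothelial RNA in the genotype differences of both arms was not tested.

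**Figure D5:**
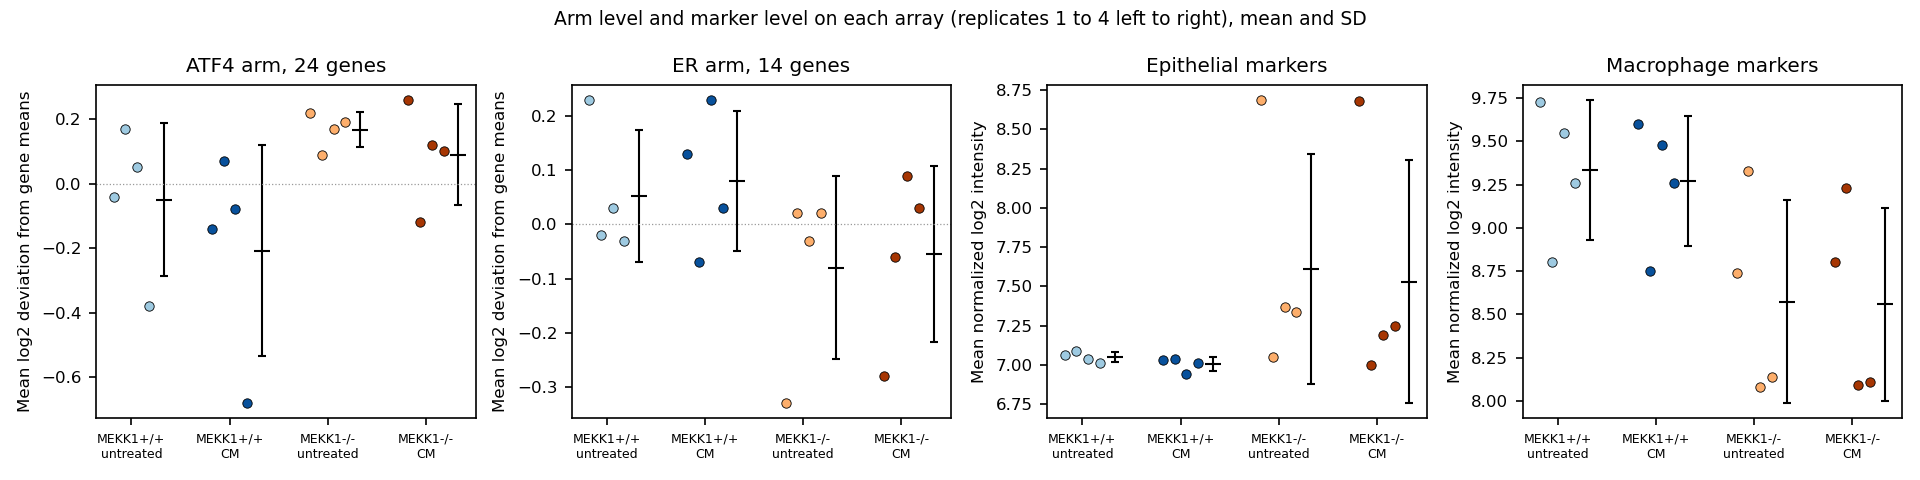
Mean log2 deviation of the ATF4 and ER arms from their gene means (left 2 panels) and mean normalized log2 intensity of epithelial and macrophage markers (right 2 panels) on each array, by group (points: replicates 1 to 4 from left to right; bar: mean and SD). Both MEKK1+/+ arrays numbered 4 are lowest in the ATF4 arm (-0.38 and -0.68), and both MEKK1-/- arrays numbered 1 are lowest in the ER arm (-0.33 and -0.28) and highest in epithelial markers.

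The lean of the arms also depended on the scale. In untreated cells the ATF4 arm median between genotypes was 0.21 after quantile normalization (23 of 27 genes higher), -0.01 with the values as deposited (13 of 27) and -0.03 with arrays scaled to the same median (12 of 27). Relative to the median of genes above background, the 24 ATF4 arm genes averaged over media were higher on arrays labelled MEKK1-/- by 0.25 after quantile normalization, 0.16 as deposited, 0.16 scaled to the same median and 0.31 as z-scores. The 14 ER arm genes were at -0.12, -0.19, -0.19 and -0.10 on the same scales. Relative to the median of all genes, the ATF4 arm was at 0.26, 0.02, 0.02 and 0.28 and the ER arm at -0.11, -0.33, -0.33 and -0.13, so the ATF4 arm stood apart from that reference by 0.02 alone as deposited or scaled to the same median. As deposited, the median of all genes differed by 0.15 between genotypes averaged over media.

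With the promoter sites in view, the 8 ATF4 arm genes that hold the composite site changed with CM, averaged over genotypes, from -0.26 (TRIB3) to 0.47 (NUPR1), and NUPR1 alone was called. The 8 ER arm genes that hold the ER stress element ranged from -0.64 (DNAJC3) to 0.28 (SYVN1), and DNAJC3 alone was called. Genes with the same site thus lay on both sides of 0 in each arm.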

How the data were processed

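Gene expression was measured on 16 Illumina Mouse 8 arrays. The deposited values are linear intensities, 1 for each gene symbol on each array, which the authors had normalized at a core facility by a method not given in the sources used here. Background treatment and the joining of probes are not given either. The intensities were converted to log2 from the deposited values and quantile normalized. The 4 groups, taken from the sample titles, were fitted together with limma 3.58.1 in R 4.3.3 (lmFit, eBayes, 12 residual degrees of freedom), for 7 comparisons, with Benjamini-Hochberg adjustment over 18132 genes. The study's methods name z-scores and z-tests. Versions of both were run as alternatives with other scalings, a pseudocount of 16, a floor at 64 and each array left out. The z-test used here may differ from the authors' form, and with 4 arrays per group its p-values are too small. The limma fit alone was run on simulated data, for the CM comparison in MEKK1+/+ cells and with independent noise on each array. Normalization, the replicate block, the z-test and the genotype comparisons were not simulated.

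Gene arms, roles, pathway lists and markers were chosen with earlier results of these data known. Genes called in any comparison, and the gene of each role with the largest mean CM change, are given on all arrays; EIF4EBP1 was added after its values were seen. Pairing by replicate number was checked by the correlation of deviations of same-numbered untreated and CM arrays across genes: 0.505, 0.403, 0.219 and 0.251 on arrays labelled MEKK1-/-, all over 0.1, and -0.038, 0.485, 0.120 and 0.576 in MEKK1+/+, where the numbers were not taken as pairs. A CM array of another number correlated better with untreated replicates 3 and 4 labelled MEKK1-/- and with untreated MEKK1+/+ replicate 1. For the CM comparisons the replicate block used equal numbers as pairs in both genotypes. The labels name no pairs, so calls with the block rest on a pairing that is not stated. Log2 correlations within groups ran from 0.979 to 0.996, with 0 identical columns. The number of arrays limits the precision. Promoters came from RefSeq.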

Additional observations from a re-analysis of the deposited data

Results flagged for a closer look

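Of 48 groups of 4 arrays checked for a single array far from the other three, over the 10 genes given on all arrays and both arm levels, 5 stood out, where chance gives about 1 in 20. CALR was 7.90 on the CM array labelled MEKK1-/- replicate 1, while the others lay between 8.54 and 8.59. MARS was 8.88 on the same array, with the others between 8.65 and 8.68. SYVN1 was 12.46 on untreated MEKK1+/+ replicate 1 (others 12.92 to 13.00) and 13.46 on MEKK1+/+ replicate 1 with CM (others 12.93 to 13.02). The ER arm level was -0.33 on the untreated array labelled MEKK1-/- replicate 1, with the others between -0.03 and 0.02. Both arrays labelled MEKK1-/- and numbered 1 also had the highest epithelial marker levels, 8.69 and 8.68, and the part of this in the values was not tested.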

How the results depend on the processing

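Calls and medians were recomputed under 29 alternatives, 2 of them, leaving out a pair of arrays, chosen after seeing the data; no gene changed direction in a comparison where it was called, while SEL1L in MEKK1+/+ cells, not called there, was -0.16 in 1 of them. The number of the 44 genes called with CM in MEKK1+/+ cells was 5 with array weights (6.91% of all genes) and 6 with the replicate block (8.17%). On arrays labelled MEKK1-/- it was 0 as deposited (0.248%), 1 scaled to the same median (2.55%), 1 as z-scores (4.18%), 6 with the replicate block (7.93%), and 0 to 3 leaving out each array. Averaged over genotypes it was 3 as deposited (5.52%) and 8 with the replicate block (16.3%), which added SHMT2, MTHFD2 and SLC3A2. The block counts with CM rest on pairs by number that the labels state in neither genotype, and the MEKK1+/+ numbers were not taken as pairs. Between genotypes the z-test on z-scores called 6 untreated (4.51%), 1 with CM (2.54%) and 4 averaged over media (5.15%). Scaling to the same median called 4 averaged over media (CRELD2, PDIA3, PDIA4 and SEL1L, all lower), beside 6.39% of all genes. On that scale the median difference averaged over media was -0.16 for genes above background and -0.02 for all genes. Leaving out each array gave 0 to 1 calls between genotypes. In the interaction the replicate block, with pairs within each genotype, changed no call of the 44 genes. Between genotypes the block instead joined arrays of equal number across genotypes, and it changed no call either. The labels give no basis for joining these arrays. Deviations of same-numbered arrays of both genotypes correlated at -0.267, -0.575, -0.099 and -0.284 untreated and at 0.025, -0.263, 0.234 and -0.045 with CM. The unchanged calls between genotypes are therefore no check of that result.

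As deposited, the ATF4 and ER arm medians were -0.56 and -0.29 with CM in MEKK1+/+ cells, -0.34 and -0.12 averaged over genotypes, -0.01 and -0.35 between genotypes untreated, and 0.41 and 0.33 in the interaction; the ER arm was at 0.06 between genotypes with CM. Scaled to the same median, they were -0.03 and -0.38 between genotypes untreated, 0.11 and -0.25 with CM, and 0.01 and -0.31 averaged over media. The cause of these shifts was not tested. Fitting the compared groups alone gave no value for the averaged and interaction comparisons, and the floor at 64 lies under all values. The 6 genes not above background were called in no limma analysis run here, while the z-test called CANX and SLC7A1 between genotypes.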
